A study of Mus musculus with 6 samples.

Results

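The keratins of simple and ductal epithelium were examined in cultured mouse pancreatic acini. They comprised 6 genes, Krt7, Krt8, Krt18, Krt19, Krt20 and Krt23, which were taken by gene name from a table of 56953 genes. All 6 were measured in every library and all 6 passed the filter on low counts.

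Keratins are the intermediate filament proteins of epithelia. A filament is built from pairs of one type II (basic) and one type I (acidic) chain, so the genes work in partnership. Krt7 and Krt8 encode type II chains, and Krt18, Krt19, Krt20 and Krt23 encode type I chains. Krt8 and Krt18 are the main pair of pancreatic acinar cells, where the filaments stand under the apical membrane and around the secretory pole. Krt19 and Krt7 mark the pancreatic ducts, and Krt19 is the usual marker of acinar-to-ductal metaplasia (ADM), the change in which acinar cells give up enzyme secretion and take on duct-like features. Krt20 is best known from intestinal and gastric surface epithelium and from urothelium, and Krt23 is a less studied chain found in several glandular epithelia.

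RNA was sequenced in bulk from 6 acinar cultures on day 3 of an ex vivo ADM assay, 2 in each of 3 groups. The groups were wild-type acini (WT, aged 10 and 11 weeks), acini of Dkk3 knockout mice (DD, 12 and 13 weeks) and DD acini given recombinant DKK3 (DD + rDKK3, 14 and 15 weeks). DKK3 is a secreted glycoprotein, and the knockout allele, which replaces exon 2 in every tissue of the animal, removes the secreted form. All cultures shared Matrigel and a Waymouth medium with serum, trypsin inhibitor and dexamethasone. The labels give male donors except for WT 2, and no strain. The labelled ages rise by 1 week from each library to the next, and whether they were recorded animal by animal is not given in the sources used here. As labelled, age rose with group, so the 2 cannot be told apart. The labels present the libraries as separate samples but name no animal, although an untreated and a treated DD library with 1 replicate number have titles that begin alike, so p-values measure the spread between these samples, which may be technical.

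The libraries held 12018473 to 19750401 counts. The gene-level Dkk3 count was 1 to 11 in all 6 libraries and did not separate the genotypes. Counts this low, summed over the whole gene, do not check the deletion of exon 2. WT 2, labelled female, held 16 counts of Xist, against 0 in every other library. Its 4 Y-linked genes summed to 141 CPM (counts relative to the scaled library total), against 119 to 147 CPM in the other libraries. That label was thus not borne out by the Y-linked genes, and WT 2 alone held both Xist and Y-linked transcripts. The labelled cell type was borne out by the acinar markers as a sum, 115425 to 200712 CPM, and 21 of 21 passed the filter. Their levels were uneven, with Ctrb1 at 40343.5 to 66738.6 CPM and Amy2a5 at 3.55 to 13.7 CPM. The 12 fibroblast markers summed to 825 CPM in DD 2 and 928 CPM in DD + rDKK3 2 but to 46.4 to 167 CPM in the other 4 libraries. Keratin fold changes that rest on WT 2, DD 2 or DD + rDKK3 2 are therefore also given without them. Ratios, sums and the values of other genes are not.

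The genes lie in the 2 keratin clusters of the mouse genome. In GRCm39, Krt7 (ENSMUSG00000023039.18) spans chr15:101308924-101328194 on the plus strand, Krt8 (ENSMUSG00000049382.11) spans chr15:101905133-101912917 on the minus strand, and Krt18 (ENSMUSG00000023043.8) spans chr15:101936615-101940462 on the plus strand. Krt18 is the only type I gene of the set in the type II cluster. It is transcribed away from Krt8, with 23.7 kb between the start sites. The other type I genes lie on the minus strand of chromosome 11, Krt20 (ENSMUSG00000035775.3) at chr11:99319229-99328976, Krt23 (ENSMUSG00000006777.8) at chr11:99368800-99383963 and Krt19 (ENSMUSG00000020911.15) at chr11:100031636-100039491. Krt20 and Krt23 start 55.0 kb apart.

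Promoter sequences from RefSeq (GRCm38.p6) were available for 5 of the 6 genes, and Krt19 had no entry. The 250 bases before the RefSeq start site are shown for Krt8 and Krt18, the partner genes whose levels lay closest together, and for Krt20, the gene that varied most. The RefSeq start sites are not those of the gene spans above, and lay 140 bases downstream of the span's start for Krt8, 36 for Krt18 and 1360 for Krt7, which is not shown. Capitals mark the letters of 5 searched motifs on either strand, AP-1 (TGANTCA), SP1 (GGGCGG), ETS (CCGGAA), TEAD (GGAATG) and the TATA box (TATAAA).
Krt8, chr15:102004343-102004592, minus strand: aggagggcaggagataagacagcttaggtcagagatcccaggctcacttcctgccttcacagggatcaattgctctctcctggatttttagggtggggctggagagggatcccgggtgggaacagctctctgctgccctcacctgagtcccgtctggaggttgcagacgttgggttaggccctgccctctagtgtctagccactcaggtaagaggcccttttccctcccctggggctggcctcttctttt
Krt18, chr15:102027966-102028215, plus strand: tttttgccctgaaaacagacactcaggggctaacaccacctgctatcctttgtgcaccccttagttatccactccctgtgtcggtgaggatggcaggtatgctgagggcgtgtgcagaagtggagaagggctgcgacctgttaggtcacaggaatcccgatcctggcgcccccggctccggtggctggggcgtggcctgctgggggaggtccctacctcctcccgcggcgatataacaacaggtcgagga
Krt20, chr11:99438154-99438403, minus strand: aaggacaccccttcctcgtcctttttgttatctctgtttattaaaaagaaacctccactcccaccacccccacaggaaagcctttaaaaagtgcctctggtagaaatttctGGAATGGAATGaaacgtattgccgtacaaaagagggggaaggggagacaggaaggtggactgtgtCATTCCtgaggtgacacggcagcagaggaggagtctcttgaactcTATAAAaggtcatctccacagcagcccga
The Krt20 window held the TEAD letters 3 times, with their first base 139, 134 and 74 bases before the RefSeq start site, and the TATA letters once, 29 bases before it. The first 2 TEAD matches share 1 base, and no match of one motif overlapped a match of another. Across 32526 RefSeq promoter windows of the same length, 12.6% held the TEAD letters at least once and 0.0892% at least 3 times, and 12.3% held the TATA letters. The windows of Krt8, Krt18 and Krt23 held none of the 5 motifs, which were found in 6.73% (AP-1), 33% (SP1) and 12.1% (ETS) of all windows for the other 3. The Krt7 window held the SP1 letters 4 times and none of the rest. A match is a description of the letters and says nothing of whether a factor was bound.

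The genes fell into an abundant and a scarce set. On the scale of CPM per kilobase of the canonical transcript, Krt18 had a mean level of 1020 over the 6 libraries (range 791 to 1284). Krt8 followed at 804 (657 to 988) and Krt19 at 433 (330 to 578), in that order in 6 of 6 libraries. The scarce keratins began 23.6-fold below Krt19, with Krt7 at 18.3 (13.8 to 21.7), Krt20 at 14.0 (5.07 to 23.7) and Krt23 at 10.3 (8.51 to 14.8). Their ranges overlapped and their order was not fixed. Krt7 was above Krt20 in 5 of 6 libraries and Krt20 above Krt23 in 4 of 6, and with the summed length of all annotated exons in place of the canonical transcript Krt7 came to 10.7 and fell behind Krt20. As a share of the 6 levels per kilobase, Krt18 took 41.1 to 48.0%, Krt8 33.2 to 37.9% and Krt19 15.5 to 22.9%. Krt20 took 0.239 to 1.07%.

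**Figure D1:**
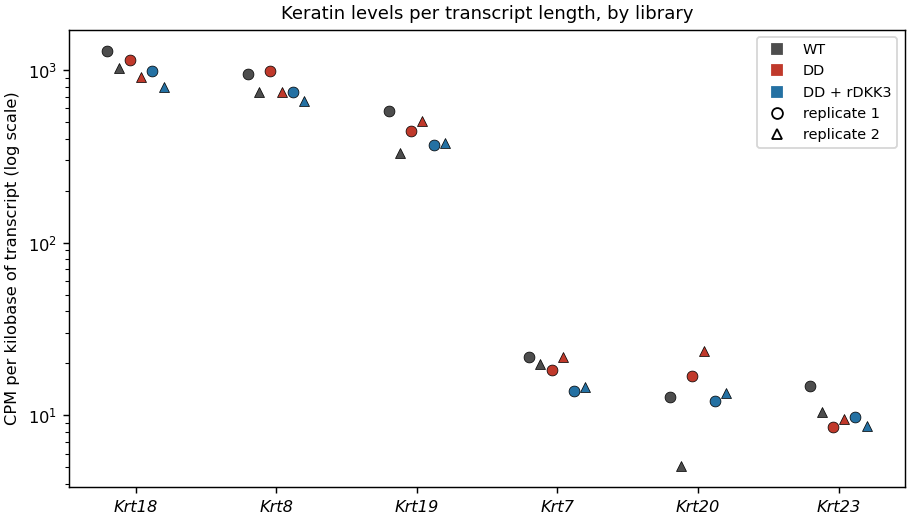
Level of each keratin in CPM per kilobase of canonical transcript (log axis), with 1 point per library, coloured by group and shaped by replicate. Krt18, Krt8 and Krt19 sit between 330 and 1284, the other 3 between 5.07 and 23.7, and the lowest point is Krt20 in WT 2.

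Krt8 and Krt18, the partners of the acinar filament, had nearly the same pattern over the libraries. Krt8 measured 1862 and 1450 CPM in WT, 1935 and 1459 CPM in DD, and 1456 and 1286 CPM in DD + rDKK3. Krt18 measured 1845 and 1464 CPM in WT, 1631 and 1308 CPM in DD, and 1411 and 1137 CPM in DD + rDKK3. In WT and in DD, the replicates of each gene differed by more than the WT and DD means did. The ratio of Krt8 to Krt18 per kilobase stayed between 0.727 and 0.871, a 1.20-fold range. The WT ratios were 0.741 and 0.727, the DD ratios 0.871 and 0.819, and the DD + rDKK3 ratios 0.757 and 0.830, so that the DD + rDKK3 values overlapped those of DD and both DD values were above both WT values. After each gene was centred on its own mean, the root mean square (RMS) difference between the 2 patterns in log2 CPM was 0.095. Of 11860 other expressed genes, 24 (0.202%) lay closer to Krt8 than Krt18 did, and 50 (0.422%) lay closer to Krt18 than Krt8 did. These points share 6 libraries and their scaling.

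Processed copies of keratin genes can take or give reads. A copy at 98.6% identity over 941 bases, Krt8-ps, held 153 counts in all, equal to 0.0976% of the Krt8 count. The Krt18 copy Gm5200 held 7 counts and the Krt7 copy Gm7882 none, which allows up to 3 counts per library. No copy was found for Krt19, Krt20 or Krt23 at 90% identity over 100 bases.

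**Figure D2:**
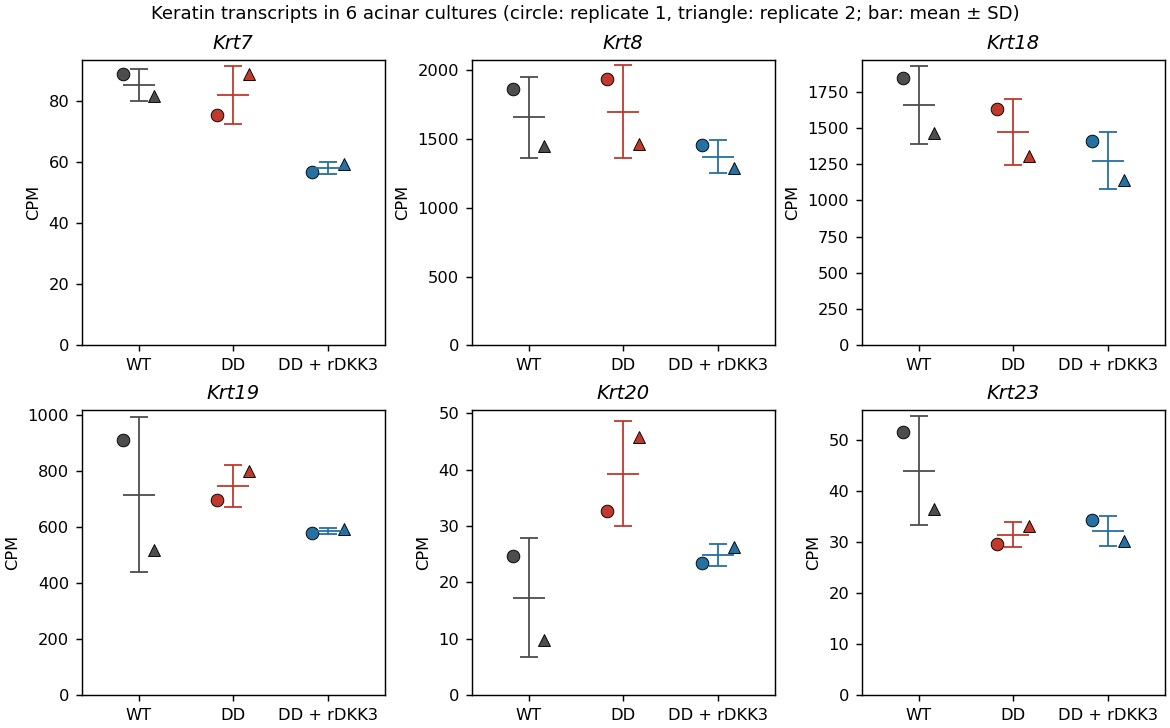
CPM of the 6 keratins by group, with circles for replicate 1, triangles for replicate 2 and bars for the mean ± SD (n = 2), each axis starting at 0. Krt20 is higher in both DD libraries (32.7 and 45.9) than in any other library, and Krt7 is lower in both DD + rDKK3 libraries (56.7 and 59.4) than in any other.

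The comparison of DD with WT asked whether keratin transcripts differed when acini could not secrete DKK3. Krt20 stood out. It measured 24.8 and 9.83 CPM in WT, from 252 and 140 counts, and 32.7 and 45.9 CPM in DD, from 692 and 780 counts. Both DD libraries were above both WT libraries, and the 95% Poisson intervals, which cover counting error only, ran from 8.27 to 11.6 CPM in WT 2 and from 21.8 to 28.0 CPM in WT 1, so the WT replicates differed by more than counting error. The group means were 17.3 ± 10.6 CPM in WT and 39.3 ± 9.27 CPM in DD (SD, n = 2 each). The fold change was 2.29 (95% interval 1.24 to 4.26), or 1.20 on the log2 scale (SE 0.383), with an unadjusted p of 0.0149 in edgeR's quasi-likelihood test and a Benjamini-Hochberg adjusted p of 0.586 over 14738 genes. Without WT 2 the log2 fold change was 0.67 (adjusted p 0.273), and without WT 1 it was 2.01 (adjusted p 0.304). The call changed in a fit without the filter on low counts, where Krt20 had a log2 fold change of 1.26 and an adjusted p of 3.88e-07, and that fit called 528 genes where the filtered one called 6. A block with the WT replicate numbers crossed, chosen after seeing the data, called 296 genes, with Krt20 among them. No label gives such a crossing, so that call rests on a block picked from these data.

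Krt23 lay in the other direction. It measured 51.6 and 36.5 CPM in WT against 29.7 and 33.2 CPM in DD, and the groups did not overlap. The log2 fold change was -0.48 (SE 0.194, 95% interval -0.93 to -0.029), with an unadjusted p of 0.0397 and an adjusted p of 0.586. It was -0.20 without WT 1 and -0.71 without WT 2.

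The ductal markers did not separate the genotypes. Krt19 measured 910 and 519 CPM in WT and 695 and 800 CPM in DD, so that both DD libraries lay between the WT libraries. Its log2 fold change was 0.064 (SE 0.267, adjusted p 0.938), and the 95% interval of the fold, 0.679 to 1.61, leaves room for a change in either direction. It turned to -0.28 without WT 2 and to -0.039 without DD 2. Krt7 measured 88.8 and 81.5 CPM in WT and 75.3 and 88.8 CPM in DD, with a fold of 0.963 (95% interval 0.752 to 1.23, adjusted p 0.906), and its sign depended on scaling, being 0.16 on the log2 scale with library totals alone.

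For the acinar pair, Krt8 had a fold of 1.02 in DD relative to WT (95% interval 0.714 to 1.47, adjusted p 0.961) and Krt18 a fold of 0.888 (0.622 to 1.27, adjusted p 0.773). Both groups overlapped for both genes. The Krt18 log2 fold change of -0.17 became 0.050 when counts were scaled by library totals alone, a scaling that moved the median of all genes to 0.22. Krt8 turned to -0.13 without WT 2 and to -0.16 without DD 1.

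Of the 6 keratins, 0 were called in DD relative to WT at an adjusted p under 0.05 by edgeR, where the call rate over all genes was 0.0407%. DESeq2 and limma-voom also called 0. At an unadjusted p under 0.05, 2 of 6 passed (Krt20 and Krt23), against 8.26% of all genes. The groups did not overlap for 2 of 6, against 37.8% of all genes. The direction was higher for 3 and lower for 3, and the median log2 fold change was -0.0092, beside 0.016 for all genes tested.

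Transcripts of other cell types moved beside these values. The summed fibroblast markers were 120 and 46.4 CPM in WT and 70.3 and 825 CPM in DD. The 8 mesothelial markers summed to 8.84 and 8.50 CPM in WT and 15.1 and 35.3 CPM in DD. Muc16 was at 0 in all libraries and 2 of the 8 were above the filter. Msln alone measured 7.76 and 8.43 CPM in WT and 14.2 and 32.6 CPM in DD, and so carried most of the mesothelial sum. Mesothelium makes Krt7, Krt8, Krt18 and Krt19 itself. The acinar markers summed to 200712 and 154765 CPM in WT and 129580 and 115425 CPM in DD. In bulk RNA, fewer cells of a type and less RNA per cell cannot be told apart, and the part of these cells in the keratin values was not tested. With DD 2 and DD + rDKK3 2 both left out, the Krt20 log2 fold change was 0.93 (SE 0.417, adjusted p 0.726).

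Whether adding the protein back to knockout acini altered the keratins was examined by comparing DD + rDKK3 with DD. Krt7 had the smallest p of the set. It measured 56.7 and 59.4 CPM with rDKK3 and 75.3 and 88.8 CPM in DD, with means of 58.0 ± 1.91 and 82.1 ± 9.50 CPM (SD, n = 2 each). Both treated libraries were below both DD libraries. The fold was 0.707 (95% interval 0.552 to 0.907), or -0.50 on the log2 scale (SE 0.154), with an unadjusted p of 0.0126 that only 0.441% of the genes tested fell below, yet with an adjusted p of 1.00. Leaving out single libraries gave log2 fold changes from -0.64 to -0.38.

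Krt20 measured 23.4 and 26.2 CPM with rDKK3, from 444 and 488 counts, and again did not overlap DD at 32.7 and 45.9 CPM. The fold was 0.633 (95% interval 0.348 to 1.15) and the log2 fold change -0.66 (SE 0.371), with an unadjusted p of 0.115 and an adjusted p of 1.00. Without DD 2 it was -0.40. A fit chosen after seeing the data took the replicate number as a block over the 4 Dkk3-null libraries alone. For Krt20 it gave a log2 fold change of -0.65 with an adjusted p of 0.0201 in edgeR. That fit called 194 of 14665 genes, where the main fit called 0, and the labels do not tie equal numbers to 1 animal.

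Krt19 measured 578 and 593 CPM with rDKK3, a narrow pair below both DD libraries, and had a fold of 0.783 (95% interval 0.509 to 1.21). Krt8 also lay below DD in both treated libraries, the closest pair being 1456 and 1459 CPM, with a fold of 0.808 (0.563 to 1.16). Its log2 fold change of -0.31 was -0.11 without DD 1 and -0.50 without DD 2. Krt18 overlapped DD and had a fold of 0.867 (0.607 to 1.24), and its log2 fold change of -0.21 was -0.061 without DD 1, -0.36 without DD 2, -0.38 without DD + rDKK3 1 and -0.065 without DD + rDKK3 2. Krt23 measured 34.3 and 30.2 CPM with rDKK3, overlapped DD, and had a fold of 1.02 (0.750 to 1.40), a value whose sign changed with scaling, to -0.0071 on the log2 scale with library totals alone. All 4 had an adjusted p of 1.00 in edgeR.

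Of the 6 keratins, 0 were called in DD + rDKK3 relative to DD, where edgeR called 0% of all genes and DESeq2 called 5 genes, none of them a keratin. At an unadjusted p under 0.05, 1 of 6 passed (Krt7), against 1.98% of all genes. The groups did not overlap, with rDKK3 lower, for 4 of 6 (Krt7, Krt8, Krt19 and Krt20), against 14.4% of all genes. The direction was lower for 5 of 6, and the median log2 fold change was -0.33, beside -0.0028 for all genes. The genes of a keratin pair share cells and libraries and are not independent.

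The values of other cell types differed here too. The acinar markers summed to 154314 and 126431 CPM with rDKK3. Their fitted level was higher than in DD for 21 of 21 genes, against 49.5% of all genes, and 0 were called. These markers share cells and libraries and are not independent. The mesothelial markers summed to 13.0 and 13.8 CPM, of which Msln held 12.0 and 12.2 CPM. That sum lay below DD through Msln. Wt1, the other mesothelial marker above the filter, overlapped, with 0.475 and 1.45 CPM against 0.237 and 1.88 CPM in DD. The fibroblast markers summed to 167 and 928 CPM. With both fibroblast-rich libraries left out, the log2 fold change was -0.40 for Krt7 and -0.47 for Krt20, with 1 library per group and the spread taken from WT.

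The comparison of DD + rDKK3 with WT placed the treated knockout acini beside the wild type. Krt7 again had the smallest p. Its 56.7 and 59.4 CPM lay below 88.8 and 81.5 CPM in WT, and the fold was 0.681 (95% interval 0.531 to 0.874), with a log2 fold change of -0.55 (SE 0.155), an unadjusted p of 0.00776 and an adjusted p of 0.321. Krt23 lay below WT with a log2 fold change of -0.45 (SE 0.194, unadjusted p 0.0521, adjusted p 0.327). It moved to -0.16 without WT 1 and to -0.67 without WT 2. Krt18 lay below WT with -0.38 (SE 0.221, adjusted p 0.406), or -0.18 without WT 1 and -0.22 without DD + rDKK3 2.

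Krt20 with rDKK3 was close to WT 1 (24.8 CPM) and was above WT 2 (9.83 CPM). The log2 fold change was 0.54 (SE 0.383, adjusted p 0.477), and it ranged from 0.011 without WT 2 to 1.36 without WT 1, so its size rested on which WT library was used. Krt19 lay between the WT libraries, at -0.29 (SE 0.268, adjusted p 0.581), and turned to 0.19 without WT 1. Krt8 overlapped WT at -0.27 (adjusted p 0.535), with -0.061 without WT 1, -0.44 without WT 2 and -0.18 without DD + rDKK3 2.

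Of the 6 keratins, 0 were called in DD + rDKK3 relative to WT by edgeR, where 0.0475% of all genes were called. DESeq2 and limma-voom also called 0. At an unadjusted p under 0.05, 1 of 6 passed, against 15.3% of all genes. The groups did not overlap, with rDKK3 lower, for 3 of 6, against 27.1% of all genes. The median log2 fold change was -0.33, beside 0.017 for all genes. The 3 comparisons share libraries, so their values are not independent of each other.

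**Figure D3:**
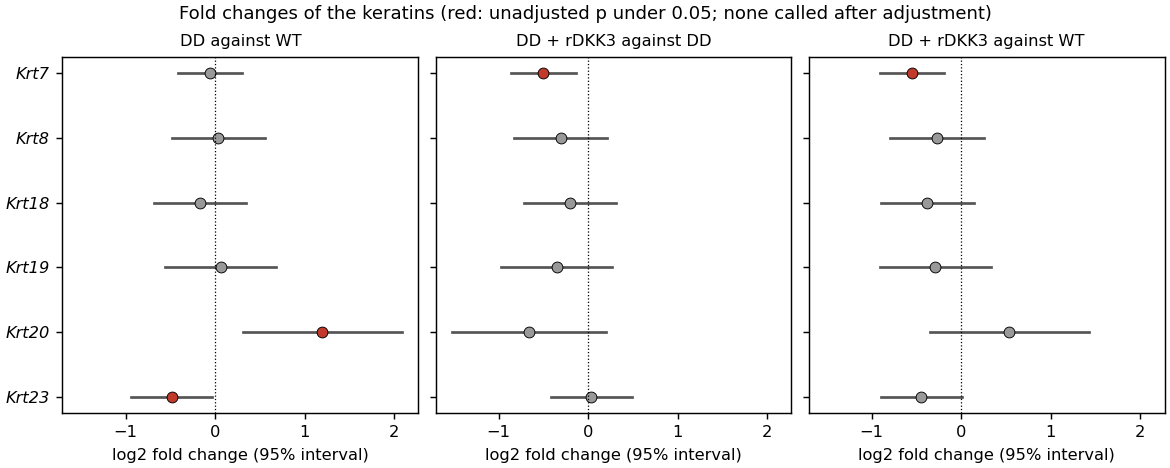
Log2 fold change of each keratin in the 3 comparisons (points) with its 95% interval (lines) from the fit across all genes; red points have an unadjusted p under 0.05 and no point passed after adjustment. Intervals that leave out 0 belong to Krt20 and Krt23 in DD relative to WT and to Krt7 in both comparisons of DD + rDKK3.

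Krt20 varied most of the set. The SD of its log2 CPM over the 6 libraries was 0.736, against 0.232 to 0.308 for the other 5. Relative to Krt19, the type I chain of ducts, its level per kilobase was 0.0221 and 0.0154 in WT. It was 0.0383 and 0.0466 in DD and 0.0330 and 0.0360 with rDKK3. The ratio to Krt19 was thus lowest in both WT libraries, highest in both DD libraries and between them with rDKK3, a 3.03-fold range. How often other gene ratios separate the groups in this way was not counted. As a share of the summed type I level per kilobase, Krt20 took 0.676 and 0.372% in WT, 1.06 and 1.63% in DD, and 0.883 and 1.14% with rDKK3. By that share DD and DD + rDKK3 overlapped, so the order did not hold. Ratios were described and not tested. The balance of type II to type I chains per kilobase stayed between 0.515 and 0.629 in all libraries.

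The summed level of the 6 genes was 4783 and 3561 CPM in WT, 4398 and 3735 CPM in DD, and 3559 and 3131 CPM in DD + rDKK3. They took 0.327 to 0.471% of all counts. The group means were 4172 ± 864 CPM in WT, 4067 ± 469 CPM in DD and 3345 ± 303 CPM in DD + rDKK3 (SD, n = 2 each). The WT and DD libraries overlapped, whereas both treated libraries lay below all 4 others, the closest pair being 3559 CPM in DD + rDKK3 and 3561 CPM in WT. That order depended on the scaling, since as a share of raw counts the 6 genes took 0.360% in DD + rDKK3 1 and 0.352% in WT 2.

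**Figure D4:**
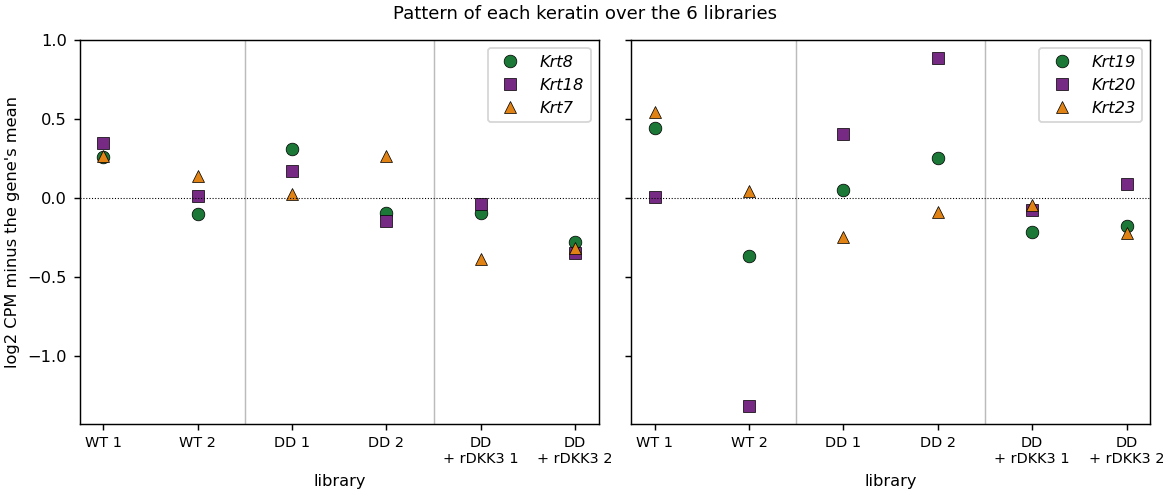
Log2 CPM of each keratin minus its own mean over the 6 libraries (vertical axis), by library (horizontal axis), with vertical lines between groups. Krt8 and Krt18 stay close together in every library, whereas Krt20 spans the widest range, from its lowest point in WT 2 to its highest in DD 2.

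The genes whose pattern over the 6 libraries was most like each keratin were found by the RMS difference of centred log2 CPM among 11860 genes. For Krt20 these were Gprc5a, an orphan receptor induced by retinoic acid, at 0.171, and Oasl1, of the oligoadenylate synthetase-like family, at 0.257. Gprc5a measured 87.6 and 42.4 CPM in WT, 116 and 144 CPM in DD, and 69.0 and 86.3 CPM in DD + rDKK3. WT 2 was its lowest library and DD 2 its highest, as for Krt20. Among the keratins, Krt19 was nearest to Krt20, at 0.534, and 309 genes (2.61%) lay closer. For Krt19 the nearest genes were Tlcd3a (0.042) and Wdr5b (0.062), for Krt7 the beta-tubulin gene Tubb2a (0.043) and Nudt2 (0.060), and for Krt23 Hint2 (0.035) and Zfp868 (0.036). For Krt8 they were the class I histocompatibility gene H2-K1 (0.046) and Gm36026 (0.057), and for Krt18 the glycolytic enzyme gene Aldoa (0.046) and Lmf1 (0.058). With only 6 libraries, many genes share any one pattern.

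Other keratins were scarce. Of 48 further keratin genes in the table, 24 had 0 counts in all libraries and 19 had 1 to 20 counts in all, and the 6 genes studied held 99.1% of all keratin counts. Krt80, a type II chain, had the highest mean of the rest (16.7 CPM), followed by Krt17 (15.7 CPM), Krt10 (1.05 CPM), Krt79 (0.942 CPM) and Krt25 (0.248 CPM). Krt17, a type I chain of basal and stressed epithelium, measured 17.9 and 18.5 CPM in WT, 16.5 and 17.1 CPM in DD, and 13.0 and 11.4 CPM in DD + rDKK3. As with Krt7, both treated libraries were below all others, and the share of all genes so placed was not counted. Its log2 fold change relative to DD was -0.46 (SE 0.167, unadjusted p 0.0269, adjusted p 1.00) and relative to WT -0.57 (SE 0.169, adjusted p 0.321). Of the 4 other keratins that passed the filter, 0 were called by edgeR in any comparison. In the 3 comparisons 0, 1 and 1 had an unadjusted p under 0.05, against 8.26, 1.98 and 15.3% of all genes.

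Keratin filaments end at desmosomes, which they reach through plakins and plakophilins. Of 13 such genes tested, 10 had a higher fitted level in DD than in WT (median log2 fold change 0.14), 10 in DD + rDKK3 than in DD (0.086) and 11 in DD + rDKK3 than in WT (0.28), beside medians of 0.016, -0.0028 and 0.017 for all genes. By edgeR 0 were called in each comparison, with 3, 1 and 5 at an unadjusted p under 0.05, against 8.26, 1.98 and 15.3% of all genes. Desmoplakin, Dsp, the plakin that anchors keratins, measured 95.1 and 119 CPM in WT, 162 and 121 CPM in DD, and 167 and 171 CPM in DD + rDKK3, with a log2 fold change of 0.66 relative to WT in the treated acini (SE 0.199, unadjusted p 0.0114, adjusted p 0.321). Epiplakin, Eppk1, a plakin that binds keratins 8 and 18, measured 4.52 and 5.90 CPM in WT, 6.15 and 4.53 CPM in DD, and 9.72 and 11.2 CPM with rDKK3. Its log2 fold change was 0.96 relative to DD (SE 0.249, unadjusted p 0.00512, adjusted p 1.00), opposite in sign to Krt8 and Krt18. The plectin gene Plec measured 35.4 and 60.0 CPM in WT and 78.7 and 67.7 CPM in DD, a log2 fold change of 0.61 (adjusted p 0.586). Pkp4 (0.39) and Dst (0.66) had the same adjusted p. Jup, the junctional plakoglobin gene, lay at 0.20 in DD + rDKK3 relative to DD (adjusted p 1.00).

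Genes that modify or cut keratins were also set beside them. Of 14 tested, 8, 10 and 9 had higher fitted levels in the 3 comparisons in the order above (medians 0.070, 0.059 and 0.029). None was called by edgeR, with 3, 1 and 1 at an unadjusted p under 0.05, against 8.26, 1.98 and 15.3% of all genes. Sfn, the epithelial 14-3-3 protein, measured 71.5 and 79.0 CPM in WT, 111 and 110 CPM in DD, and 71.6 and 69.3 CPM in DD + rDKK3. The DD libraries stood above all 4 others, as for Krt20, and the share of all genes so placed was not counted. Its log2 fold change was 0.56 in DD relative to WT (SE 0.144, unadjusted p 0.00522, adjusted p 0.586) and -0.65 in DD + rDKK3 relative to DD (SE 0.144, unadjusted p 0.00213, adjusted p 1.00). Hspb1, a small heat shock protein that associates with keratins, lay lower in DD at -0.70 (adjusted p 0.586).

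Intermediate filament genes other than keratins were compared as well. Of 8 tested, 4, 5 and 6 had higher fitted levels (medians -0.0049, 0.041 and 0.12). In edgeR 0 were called and 0 reached an unadjusted p under 0.05, against 8.26, 1.98 and 15.3% of all genes. Vim, the filament of mesenchymal cells, measured 28.5 and 14.8 CPM in WT, 20.1 and 96.5 CPM in DD, and 26.2 and 96.1 CPM in DD + rDKK3, high in the libraries with the most fibroblast transcripts. Krt20 was highest of all in DD 2. Krt7, Krt19 and Krt20 were each higher in replicate 2 than in replicate 1, in both DD and DD + rDKK3. For these genes the 95% counting intervals of the treated replicates overlapped. Krt8 and Krt18 were instead lower in replicate 2 in both groups. Krt23 was higher in DD 2 than in DD 1 but lower in DD + rDKK3 2 than in DD + rDKK3 1. The part of fibroblasts in these values was not tested. Lmna, of the nuclear lamina, had a log2 fold change of 0.35 in DD relative to WT (adjusted p 0.586), and Nes one of 0.44 in DD + rDKK3 relative to DD (adjusted p 1.00).

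Ductal identity genes other than keratins went both ways. Of 18 tested, 12 had higher fitted levels in DD than in WT (median 0.054), 7 in DD + rDKK3 than in DD (-0.080) and 9 in DD + rDKK3 than in WT (0.013). By edgeR 0 were called, with 2, 1 and 6 at an unadjusted p under 0.05, against 8.26, 1.98 and 15.3% of all genes. Tspan8, a tetraspanin of ductal epithelium, measured 55.5 and 39.4 CPM in WT, 63.7 and 122 CPM in DD, and 35.8 and 50.1 CPM with rDKK3. It lay higher in DD than in WT by 0.97 (SE 0.329, adjusted p 0.586) and lower with rDKK3 by a log2 fold change of -1.11 (SE 0.328, adjusted p 1.00). Mmp7, a protease of metaplastic ducts, measured 327 and 314 CPM in WT and 86.3 and 207 CPM in DD, a log2 fold change of -1.13 (SE 0.355, adjusted p 0.586). In DD + rDKK3 relative to WT, Mmp7 lay at -1.53 (SE 0.359), Car2, a carbonic anhydrase of duct cells, at -1.13 (SE 0.280) and Sox9, the ductal transcription factor, at 0.50 (SE 0.188), each with an adjusted p of 0.321.

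Of 16 simple epithelial genes that served as a reference, 7, 10 and 9 had higher fitted levels (medians -0.046, 0.026 and 0.078), and 0 were called. Esrp2, an epithelial splicing factor, lay at 0.49 and the claudin gene Cldn3 at -0.57 in DD relative to WT (adjusted p 0.586 for both). When counts were scaled by these 16 genes, the Krt20 log2 fold change in DD relative to WT was 1.39 and that of Krt7 in DD + rDKK3 relative to DD was -0.54, so both kept their direction relative to epithelial transcripts.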

How the data were processed

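The authors prepared strand-specific libraries, aligned paired-end reads with STAR (2.7.9a) to GRCm39 and counted them over the exons of each gene in union mode with strand. The deposited values are raw counts per gene, which the authors did not normalize. A read that fits a gene and its pseudogene equally well can be lost or moved by such counting. Among these deposited counts, filterByExpr retained genes (minimum count 10, minimum total 15), 14738 of 56953, and 92 spike-in rows were left out. Counts were scaled by TMM and fitted with edgeR 4.0.16 (quasi-likelihood, all 6 libraries, 3 groups, R 4.3.3), with Benjamini-Hochberg adjustment over all genes kept and calls at an adjusted p under 0.05. CPM used the TMM-scaled totals, and log2 CPM a prior count of 2. Tests were two-sided. DESeq2 1.42.0, limma-voom (limma 3.58.1), other scalings, no filter, replicate blocks and leaving out libraries were alternatives. Transcript lengths came from a later annotation of GRCm39.

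The 6 keratins and all gene lists were chosen with earlier results of these data known. Named genes are the 6 keratins, up to 3 genes of each list with the smallest p in a comparison, up to 5 other keratins with the highest mean CPM, and the 2 genes most like each keratin among those with an average log2 CPM of at least 1. One gene that this rule would name is not reported here. Pseudogene copies were chosen by sequence match.

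Replicates of every group differed by more than counting noise, with a chi-square over degrees of freedom of 31.0 for WT, 65.7 for DD and 23.0 for DD + rDKK3. At 140 to 40881 counts per keratin and library, counting error was not the smaller part everywhere, and the 95% counting intervals of the replicates overlapped for several keratins, such as Krt7 in WT and in DD + rDKK3. Reads had no molecular identifiers, so intervals and floors describe counting error alone.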

Additional observations from a re-analysis of the deposited data

How the results depend on the processing

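With 2 libraries per group, 3 residual degrees of freedom and 1 library often deciding a value, small differences were not detectable. The count of keratins called was 0 in each comparison under every alternative but one, those added after seeing the data apart. Without the filter on low counts, Krt20 was called in DD against WT (log2 fold change 1.26, adjusted p 3.88e-07, 1 keratin called). That fit also called 528, 73 and 788 genes in the comparisons of DD with WT, treated with untreated DD, and treated DD with WT, where the filtered fit called 6, 0 and 7. DESeq2 called 77, 5 and 34. Scaling by the epithelial reference list gave 3 calls in DD against WT and 4 in DD + rDKK3 against WT, where limma-voom gave 3. Leaving out single libraries gave 2 to 6, 0 to 0 and 2 to 9 genes and 0 keratins. The causes were not tested.

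An untreated and a treated DD library with 1 replicate number have titles that begin alike, but no label names an animal, so equal replicate numbers were not taken as pairs. Deviations of same-numbered libraries correlated at -0.39 between WT and DD, -0.25 between WT and DD + rDKK3 and 0.65 between DD and DD + rDKK3. The replicate block gave 7, 0 and 5 genes and 0 keratins. Chosen after seeing the data, a block with the WT numbers crossed called 296, 29 and 566 genes and 1 (Krt20), 0 and 0 keratins. Also added, a block over the 4 Dkk3-null libraries alone called 194 genes and 1 keratin (Krt20, -0.65, adjusted p 0.0201) in DD + rDKK3 against DD. Leaving out both fibroblast-rich libraries, a further addition, gave 14 genes in DD against WT.

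Krt20 kept its direction in DD against WT under 17 of 17 alternatives (0.67 to 2.01), as did Krt23 (-0.71 to -0.20). In DD + rDKK3 against DD, Krt20 (-0.91 to -0.40), Krt7 (-0.64 to -0.38), Krt8, Krt18 and Krt19 kept theirs under 18 of 18. Leaving out 1 library could hardly turn groups that did not overlap, so those alternatives add little there. Directions turned 12, 4 and 1 times in the 3 comparisons, each time for a value that no test had called. In DD against WT, Krt7 (-0.17 to 0.085 with single libraries left out) became 0.16 with library totals, 0.090 with the epithelial list, 0.0012 without the filter, 0.025 without WT 1 and 0.085 without DD 1. Krt18 became 0.050 with library totals and 0.020 without WT 1 (-0.32 without WT 2), and Krt8 became -0.13 without WT 2 and -0.16 without DD 1 (0.24 without WT 1). Krt19 (0.54 without WT 1) became -0.28 without WT 2, -0.039 without DD 2 and -0.042 without the fibroblast-rich libraries. In DD + rDKK3 against DD, Krt23 (up to 0.12 without DD 2) became -0.0071 with library totals, -0.0063 with the epithelial list, -0.066 without DD 1 and -0.075 without DD + rDKK3 1. In DD + rDKK3 against WT, Krt19 ranged from -0.63 without WT 2 to 0.19 without WT 1.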

Other observations

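The squamous and basal epithelial markers were low in all cultures, and 2 of 8 passed the filter, Krt17 and Ivl. Ivl, the cornified envelope precursor involucrin, measured 14.9 and 8.64 CPM in WT, 17.6 and 13.9 CPM in DD, and 7.76 and 4.36 CPM in DD + rDKK3. Both treated libraries were below all others, a placing whose share over all genes was not counted. Its log2 fold change in DD + rDKK3 relative to DD was -1.37 (SE 0.349, unadjusted p 0.00475, adjusted p 1.00 in edgeR). The 8 markers summed to 33.0 and 27.3 CPM in WT, 34.3 and 31.0 CPM in DD, and 20.9 and 16.03 CPM in DD + rDKK3.

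Msln, the mesothelial surface antigen mesothelin, measured 7.76 and 8.43 CPM in WT, 14.2 and 32.6 CPM in DD, and 12.0 and 12.2 CPM in DD + rDKK3. DD relative to WT gave a log2 fold change of 1.53 (SE 0.362, adjusted p 0.532) and DD + rDKK3 relative to DD gave -0.95 (SE 0.348, adjusted p 1.00). Both DD libraries were above the other 4, a placing whose share over all genes was not counted. The 7 endothelial markers summed to 117 to 192 CPM over the libraries, the 7 macrophage markers to 37.2 to 106 CPM and the 7 islet markers to 152 to 284 CPM. None of these genes was called by edgeR in any comparison, at an adjusted p under 0.05.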
